A study of Mus musculus with 16 samples.

Results

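The 10 genes Gad1, Gad2, Slc32a1, Slc6a9, Chat, Slc18a3, Th, Tfap2a, Tfap2b and Calb2 mark amacrine cells, the interneurons of the inner retina, by the transmitters they make or by the factors and calcium-binding protein they carry. They were followed across nm3342 mutant and wild-type mice at 1 year and at 1 month of age. All non-control array probes whose RefSeq accession belongs to one of these genes were taken, which gave 13 probes for the 10 genes, out of 55681 probes and 19022 genes tested in all. Slc32a1, Slc6a9 and Tfap2a have 2 probes each, and the probe with the higher mean over the 16 arrays stands for the gene. All 13 probes gave signal well above background on all 16 arrays, so no member was lost to the filter on dim probes.

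Amacrine cells receive input from bipolar cells and signal to bipolar cells, ganglion cells and each other. Most release GABA or glycine, which inhibit their targets, and smaller classes add acetylcholine (the starburst cells, needed for direction selectivity) or dopamine (a sparse class that adjusts the retina to light). The transcription factors AP-2α and AP-2β, encoded by Tfap2a and Tfap2b, act in the development of amacrine and horizontal cells.

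The study compared 4 groups of 4 samples: nm3342 mutants at 1 year, wild types at 1 year, nm3342 mutants at 1 month and wild types at 1 month. All 16 samples are labelled as males on the C57Bl/6J background. The title of the series puts nm3342 forward as possibly modelling serous retinal detachment, a separation of the retina from the retinal pigment epithelium (RPE) by fluid. The labels do not name the mutated gene, and each sample pooled the RNA of both retinas with their RPE, labelled with Cy3 on its own Agilent array. Nothing in the labels says whether the 4 samples of a group came from different litters, so the p-values measure the spread between these samples. A level is the log2 intensity of a probe minus its array's 75th percentile, so that 0 is that percentile. Levels of different probes were not compared with each other, though the summed levels of gene lists below weight each gene by its probe's brightness.

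Across the 16 arrays, 82.1% to 89.6% of spots were well above background, and the arrays lay on 2 slides with 2 arrays of each group per slide. Positions on the slides were not balanced. All 1-month wild types lay in array columns 3 and 4 and all 1-year wild types in columns 1 and 2. Age and array column therefore cannot be told apart in wild types. In mutants the columns of replicates 1 to 4 were 4, 3, 1 and 4 at 1 month and 3, 2, 2 and 2 at 1 year. Age and column are thus partly tied in mutants and in the comparison averaged over genotypes, and column was not tested. Most mutants lay in array row 2 and most wild types in row 1. The sex-linked genes went against the male label on 3 arrays, replicates 2 and 3 of the 1-month mutants and replicate 1 of the 1-year mutants. On these 3 arrays the level of Xist, expressed from the inactive X of females, was -0.38 to -0.03 and that of the Y-linked Ddx3y was -8.47 to -8.13, and the other 13 arrays had Xist at -8.61 to -5.68 and Ddx3y at 0.69 to 1.19. Calls of the genes named below that end or appear without these 3 arrays are given both ways. Counts of marker genes of other cells are from all 16 arrays. Replicate 4 of the 1-month mutants had the highest share of spots well above background, the lowest 75th percentile (603 intensity units, against up to 993) and the highest mean level of 12 lens genes of all 16 arrays (5.93, with the others at -2.95 to 4.90).

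Of the member genes, Chat, Slc18a3 and Tfap2b passed the test for a lower level at 1 year in wild types. The 250 bases before the annotated starts of Chat, Slc18a3 and Tfap2b are shown to place them. Genes outside the members, such as Slc5a7 and Isl1, also passed this test, and their sequences are not shown. Slc18a3 lies inside the Chat gene on chromosome 14, with its start 1059 bases downstream of the Chat start on the same strand, the arrangement known as the cholinergic locus. The sequences are from RefSeq (GRCm38.p6), 5′ to 3′ on the gene's strand, from chr14:32465910-32466159 (minus strand) for Chat, chr14:32464851-32465100 (minus strand) for Slc18a3 and chr1:19211804-19212053 (plus strand) for Tfap2b. Capitals mark the AP-2 motif GCCNNNGGC and the cAMP response half-site TGACG (read as CGTCA on the other strand).
Chat: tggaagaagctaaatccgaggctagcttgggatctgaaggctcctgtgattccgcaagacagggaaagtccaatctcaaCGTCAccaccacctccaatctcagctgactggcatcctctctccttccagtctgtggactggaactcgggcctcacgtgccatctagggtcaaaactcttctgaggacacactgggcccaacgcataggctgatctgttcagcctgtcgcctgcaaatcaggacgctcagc
Slc18a3: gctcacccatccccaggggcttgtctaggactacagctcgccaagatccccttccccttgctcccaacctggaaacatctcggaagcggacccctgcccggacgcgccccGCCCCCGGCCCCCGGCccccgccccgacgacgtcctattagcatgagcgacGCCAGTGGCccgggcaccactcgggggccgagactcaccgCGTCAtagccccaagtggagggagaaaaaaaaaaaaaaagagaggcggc
Tfap2b: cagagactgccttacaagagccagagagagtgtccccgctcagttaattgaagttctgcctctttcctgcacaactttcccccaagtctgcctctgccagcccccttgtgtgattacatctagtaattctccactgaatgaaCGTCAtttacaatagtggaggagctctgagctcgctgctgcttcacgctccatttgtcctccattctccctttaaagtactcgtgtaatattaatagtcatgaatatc
The Slc18a3 window holds 3 AP-2 matches, of which the first 2 overlap, while the Chat and Tfap2b windows hold 0. Each of the 3 windows holds 1 half-site. The half-site also lies before members that were not called in wild types, Gad2 (1), Th (2) and a window of Slc6a9 (1). Gad2 has 2 AP-2 matches as well. Of 32851 promoter windows of this length, 13.7% hold the AP-2 motif and 17.8% the half-site, which is also part of the full site TGACGTCA found in 1.55% of windows and, among the members, once before Th. GC content was 66.0% before Slc18a3, 54.8% before Chat and 46.4% before Tfap2b, beside a median of 52.4% over all windows.

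Averaged over both genotypes, Slc18a3 and Chat fell with age, by 0.40 ± 0.06 and 0.49 ± 0.10 on the log2 scale (SE), to 0.758-fold and 0.713-fold (limma, Benjamini-Hochberg adjusted p = 0.000201 and 0.00378 over all genes). Both encode parts of the acetylcholine pathway, and 2 of 10 genes is close to the 18.8% of all genes called in this comparison. In wild types alone Slc18a3, Chat and Tfap2b fell, and in mutants alone Slc18a3 fell. No member passed the test between mutants and wild types at either age. In whole tissue, fewer amacrine cells, less RNA per cell and a larger share of other tissue in the sample cannot be told apart.

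Counted over the 10 genes, the averaged age comparison called 2 lower and 0 higher, where 18.8% of all genes passed in either direction, 8.58% as lower and 10.2% as higher. The comparison within wild types called 3 lower and 0 higher, beside 12.4% of all genes in either direction and 5.09% lower. Within mutants it called 1 lower and 0 higher, beside 6.68% in either direction and 2.92% lower. The median change of the 10 genes was -0.25 in wild types, -0.09 in mutants and -0.21 averaged, beside medians over all genes of -0.03, -0.05 and -0.05. In wild types the 4 arrays at 1 year lay below all 4 arrays at 1 month for 7 of the 10 genes (Gad1, Slc32a1, Slc6a9, Chat, Slc18a3, Tfap2a and Tfap2b), where 9.73% of all genes did so. In mutants the ages overlapped for every one of the 10 genes, where 13.8% of all genes did not overlap in one direction or the other. Whether the age change differed between the genotypes was tested directly and passed for none of the 10 genes, beside 0.405% of all genes.

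Between genotypes, limma called 0 of the 10 genes at 1 year, 0 at 1 month and 0 averaged over the ages, where 0.867%, 2.67% and 2.39% of all genes passed. At an unadjusted p under 0.05 the counts were 4 at 1 year (Gad2, Slc6a9, Slc18a3 and Tfap2a), 0 at 1 month and 4 averaged (Gad2, Slc6a9, Slc18a3 and Th), beside 11.3%, 15.2% and 16.3% of all genes. For the difference between the 2 genotype effects the unadjusted count was 1, Tfap2a, beside 10.8%. The 4 mutant arrays at 1 year lay above all 4 wild-type arrays for 2 genes, Slc18a3 and Tfap2b, where 4.43% of all genes did so. At 1 month the genotypes overlapped for all 10 genes, where 8.51% of all genes did not. The median genotype difference of the 10 genes was 0.19 at 1 year and -0.01 at 1 month, beside -0.01 and 0.02 over all genes.

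**Figure D1:**
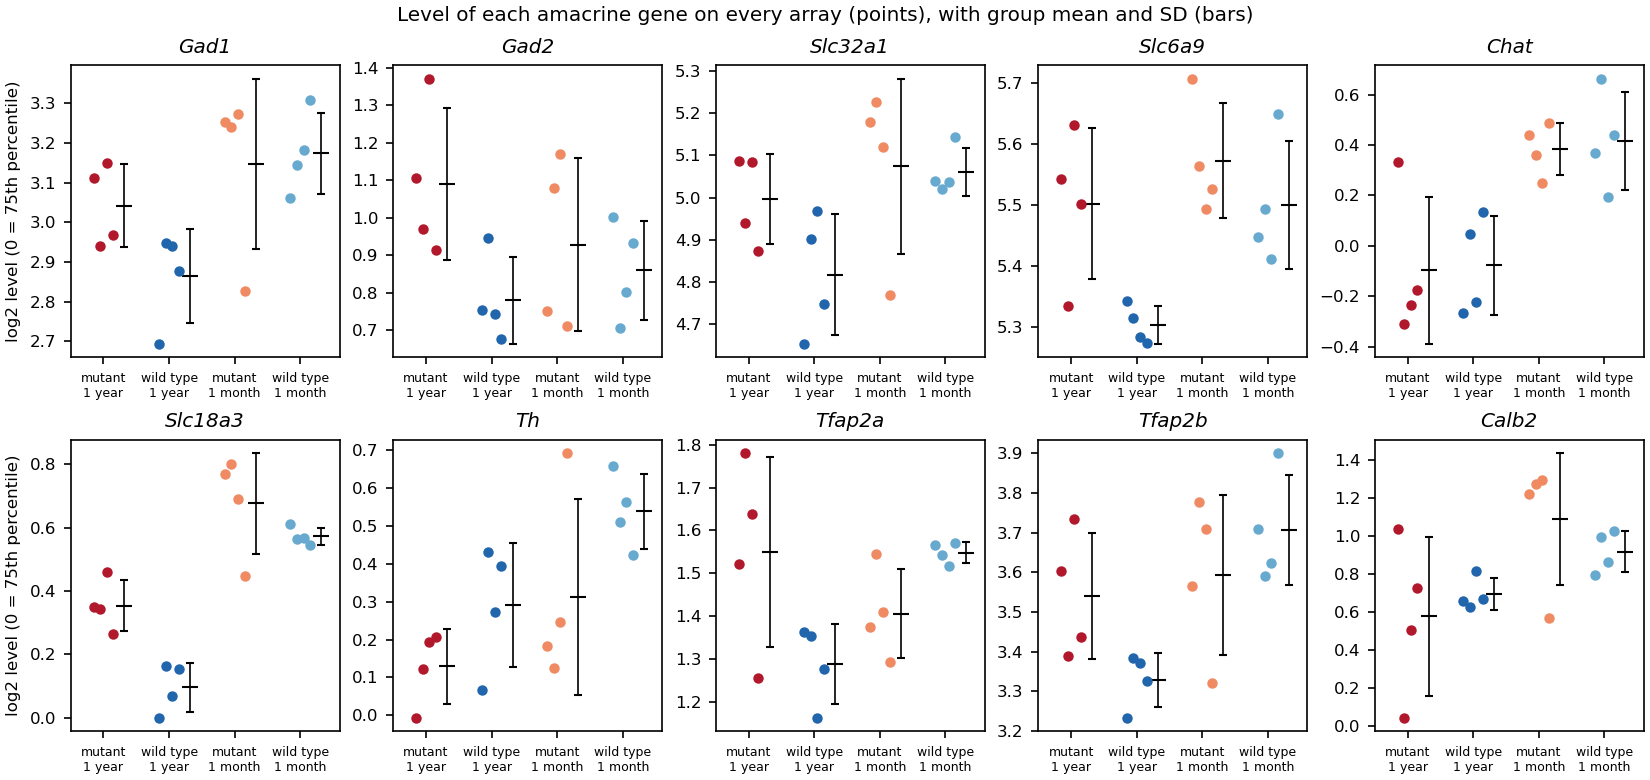
Each panel plots the log2 level of 1 gene (0 is the array's 75th percentile) on the 16 arrays as points, by group, with the group mean and SD as bars (n = 4 arrays each) and its own vertical scale. Slc18a3 shows all 4 wild-type arrays at 1 year between 0.00 and 0.16, below every other array, and in Gad1, Slc32a1 and Calb2 a single 1-month mutant array lies far below the other 3.

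**Figure D2:**
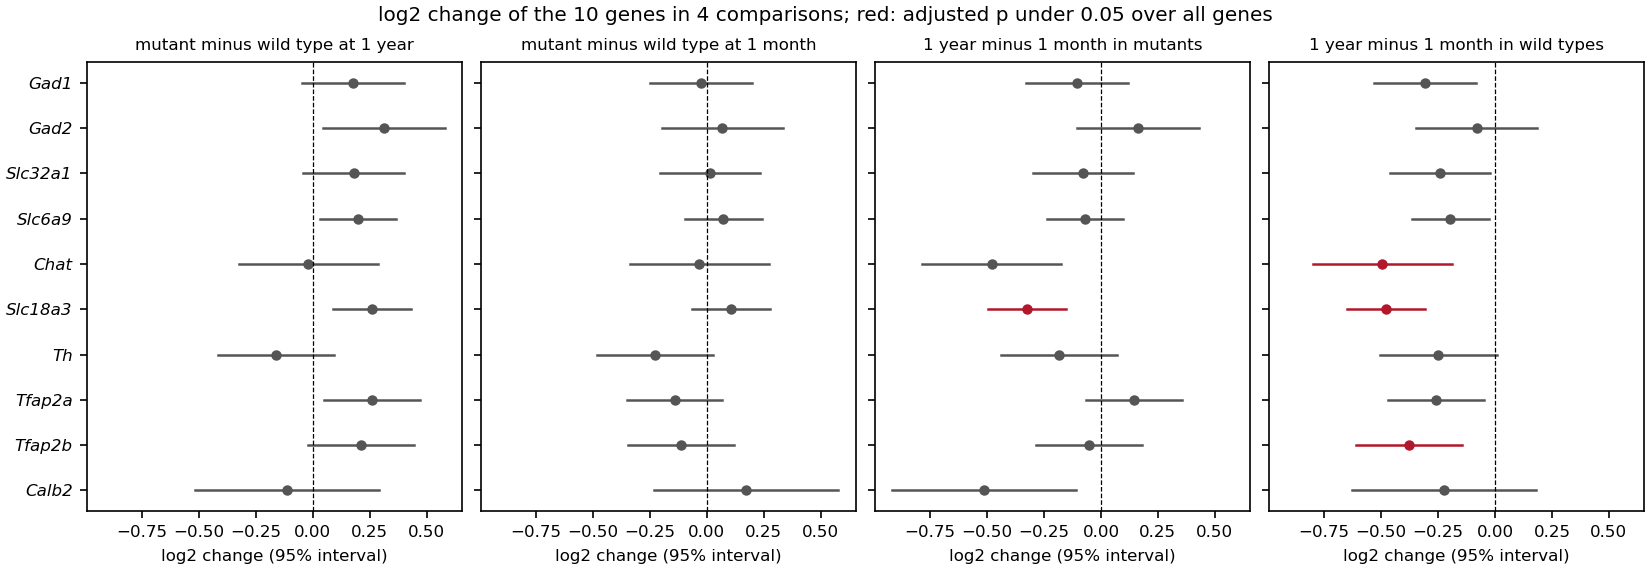
Each panel plots the log2 change of the 10 genes in 1 comparison, with points for the estimate and lines for its 95% interval over 4 arrays against 4, red where the adjusted p over all genes is under 0.05. Red appears for Slc18a3 in mutants with age and for Chat, Slc18a3 and Tfap2b in wild types with age, and in neither genotype comparison.

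GABA is made from glutamate by the enzymes encoded by Gad1 and Gad2, and it is loaded into synaptic vesicles, as glycine is, by the transporter encoded by Slc32a1. Gad1 levels at 1 year were 3.11, 2.94, 3.15 and 2.97 in mutants, against 2.69, 2.95, 2.94 and 2.88 in wild types. Its levels at 1 month were 3.25, 3.24, 3.27 and 2.83 in mutants, against 3.06, 3.14, 3.18 and 3.31 in wild types. The wild-type arrays of the 2 ages did not overlap, while replicate 4 of the 1-month mutants lay below all mutant arrays of 1 year. The Gad1 age change was -0.31 ± 0.10 in wild types (95% interval -0.53 to -0.08, adjusted p = 0.0697) and -0.11 ± 0.10 in mutants (-0.33 to 0.12, adjusted p = 0.613), so neither passed. Without replicate 4 of the 1-month mutants, Gad1 passed both in wild types, where the value stays -0.31 (adjusted p = 0.0182), and averaged over the genotypes, at -0.26 (adjusted p = 0.00584). Gad1 also passed after normexp with quantile normalization, at -0.29 in wild types (adjusted p = 0.0221) and -0.18 averaged (adjusted p = 0.0266). In the deposited log2 matrix it passed at -0.30 in wild types (adjusted p = 0.0221) and -0.18 averaged (adjusted p = 0.0314). In all, Gad1 passed in 3 of 30 alternatives in each of these comparisons.

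Gad2 did not pass in any comparison. Gad2 levels at 1 year were 1.11, 0.97, 1.37 and 0.91 in mutants, against 0.75, 0.95, 0.74 and 0.68 in wild types, with 1 mutant array inside the wild-type range. The 1-month levels of Gad2 were 0.75, 1.08, 1.17 and 0.71 in mutants, against 1.00, 0.71, 0.80 and 0.93 in wild types. At 1 month 2 mutant arrays lay above every wild-type array and the other 2 within the wild-type range, and the wild-type ages overlapped as well. The Gad2 genotype difference was 0.31 ± 0.12 at 1 year (95% interval 0.04 to 0.58, adjusted p = 0.334) and 0.07 ± 0.12 at 1 month (-0.20 to 0.34, adjusted p = 0.854), and the age change averaged over genotypes was 0.04 ± 0.09 (-0.15 to 0.23).

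Slc32a1 levels at 1 year were 5.09, 4.94, 5.08 and 4.87 in mutants, against 4.65, 4.90, 4.97 and 4.75 in wild types. At 1 month they were 5.18, 5.23, 5.12 and 4.77 in mutants, against 5.04, 5.02, 5.04 and 5.14 in wild types. As for Gad1, the wild-type ages separated and 1-month mutant replicate 4 was the lowest of its group. The Slc32a1 age change was -0.24 ± 0.10 in wild types (95% interval -0.46 to -0.02, adjusted p = 0.147), and the genotype difference was 0.18 ± 0.10 at 1 year (-0.04 to 0.40) and 0.01 ± 0.10 at 1 month (-0.21 to 0.23). Its second probe moved by -0.17 ± 0.15 with age in wild types and differed by 0.02 ± 0.15 between genotypes at 1 year, below its own error. Leaving out 1-month mutant replicate 4 brought the averaged age change of Slc32a1 to -0.21 (adjusted p = 0.0196).

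Of 16 further GABA genes, uptake carriers, the degrading enzyme and receptor subunits, 3 fell with age over both genotypes and 0 rose, with 13 of 16 estimates below 0 and a median of -0.11. The receptor subunit genes Gabrb2 and Gabrr1 fell by 0.27 ± 0.07 and 0.23 ± 0.07. The call of Gabrr1 was kept in 4 of the 16 fits that left out 1 array, and that of Gabrb2 in all 16. Neither averaged change passed without the 3 arrays against the male label, at -0.27 for Gabrb2 (adjusted p = 0.0878) and -0.22 for Gabrr1 (adjusted p = 0.179). In wild types alone Gabrb2 fell by 0.39, and that call held without the 3 arrays (adjusted p = 0.0459). It was kept in 14 of the 16 fits that left out 1 array. Slc6a11, a GABA carrier of glia, changed by -0.09 ± 0.11 with age and did not pass. None of the 16 passed between genotypes at 1 year, at 1 month or averaged.

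Glycine is cleared from the synapse by the carrier GlyT1, encoded by Slc6a9, which in the retina marks glycinergic amacrine cells. Slc6a9 levels at 1 year were 5.54, 5.34, 5.63 and 5.50 in mutants, against 5.34, 5.32, 5.28 and 5.27 in wild types. The 1-month levels of Slc6a9 were 5.71, 5.56, 5.49 and 5.53 in mutants, against 5.45, 5.49, 5.41 and 5.65 in wild types. The wild-type arrays at 1 year lay in a narrow band below all 1-month arrays, and the lowest 1-year mutant fell just inside that band. The Slc6a9 genotype difference was 0.20 ± 0.08 at 1 year (95% interval 0.03 to 0.37, adjusted p = 0.326) and 0.07 ± 0.08 at 1 month (-0.10 to 0.24), and the second probe gave 0.18 and 0.13. With age Slc6a9 changed by -0.20 ± 0.08 in wild types (-0.36 to -0.03, adjusted p = 0.125) and -0.07 ± 0.08 in mutants (-0.24 to 0.10). Of 6 measured glycine receptor and anchoring genes, 0 passed with age and 5 of 6 averaged estimates were below 0. Glra1 and Glra2, receptor subunits, changed by -0.11 ± 0.15 and -0.28 ± 0.11. Between genotypes Glra3, another subunit, was higher in mutants averaged over the ages, by 0.47 ± 0.08 (adjusted p = 0.00613), with levels of -3.51 ± 0.17 in mutants and -4.03 ± 0.25 in wild types at 1 year and -3.62 ± 0.09 in mutants and -4.04 ± 0.08 in wild types at 1 month (SD, n = 4 each). The Glra3 difference was 0.44 without the 3 arrays against the male label and did not pass (adjusted p = 0.0718).

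Acetylcholine is made by choline acetyltransferase (Chat), loaded into vesicles by the transporter encoded by Slc18a3, and remade from choline taken up by the carrier encoded by Slc5a7. Slc18a3 levels at 1 year were 0.35, 0.34, 0.46 and 0.26 in mutants, against 0.00, 0.16, 0.07 and 0.15 in wild types. Slc18a3 levels at 1 month were 0.77, 0.80, 0.69 and 0.45 in mutants, against 0.61, 0.57, 0.57 and 0.55 in wild types. In wild types the ages were widely separated, in mutants they overlapped slightly through 1-month replicate 4, and at 1 year every mutant array lay above every wild-type array. Slc18a3 fell with age by 0.48 ± 0.08 in wild types (adjusted p = 0.00124) and by 0.32 ± 0.08 in mutants (adjusted p = 0.0253). The genotype difference was 0.26 ± 0.08 at 1 year (95% interval 0.09 to 0.43, adjusted p = 0.180) and 0.11 ± 0.08 at 1 month (-0.07 to 0.28), and the difference between these, 0.15 ± 0.11 (-0.09 to 0.40, adjusted p = 0.730), did not pass. The call in mutants was lost without the 3 arrays that went against the male label, at -0.25 (adjusted p = 0.399), and with array medians as the scale, at -0.27 (adjusted p = 0.339). It was also lost without replicate 1, 2 or 3 of the 1-month mutants or replicate 1, 2 or 4 of the 1-year mutants, with values between -0.32 and -0.28. With array medians the Slc18a3 change in wild types was -0.43 and did not pass (adjusted p = 0.0598). Without replicate 4 of the 1-month mutants the genotype difference averaged over the ages was 0.22 and passed (adjusted p = 0.0181). Within slide 1 and slide 2 the change was -0.22 and -0.42 in mutants and -0.47 and -0.48 in wild types.

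Chat levels at 1 year were 0.33, -0.31, -0.23 and -0.18 in mutants, against -0.27, 0.05, -0.22 and 0.13 in wild types. Levels at 1 month were 0.44, 0.36, 0.25 and 0.49 in mutants, against 0.37, 0.66, 0.19 and 0.44 in wild types. In wild types the ages did not overlap, and in mutants they overlapped through replicate 1 of the 1-year mutants, 1 of the 3 arrays against the male label. Chat fell with age by 0.49 ± 0.14 in wild types (adjusted p = 0.0360), and in mutants the change was -0.48 ± 0.14 (95% interval -0.79 to -0.17, adjusted p = 0.0604) and did not pass. Without the 3 arrays the mutant change was -0.70 (adjusted p = 0.0492), and without 1-year replicate 1 alone it was -0.62 (adjusted p = 0.00941). The wild-type call was lost without replicate 1, 2 or 4 at 1 month or replicate 1 or 3 at 1 year, with values between -0.51 and -0.41, and with array medians as the scale, at -0.44 (adjusted p = 0.118). Genotypes differed by -0.02 ± 0.14 at 1 year (-0.33 to 0.29) and -0.03 ± 0.14 at 1 month (-0.34 to 0.27).

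Slc5a7 fell with age in wild types by 0.91 ± 0.14 (adjusted p = 0.000478) and averaged over genotypes by 0.58 ± 0.10 (adjusted p = 0.000764). In mutants alone Slc5a7 did not pass with age. At 1 year its levels were -0.77, -1.01, -0.68 and -0.88 in mutants, against -1.11, -0.79, -0.88 and -0.86 in wild types. At 1 month they were -0.52, -0.41, -0.44 and -0.98 in mutants, against -0.11, -0.08, -0.13 and 0.32 in wild types. The 1-month mutants thus lay wholly below the 1-month wild types, a genotype difference of -0.59 ± 0.14 (adjusted p = 0.0358) that was called in 9 of the 16 fits with 1 array left out. Without the 3 arrays against the male label, 2 of them 1-month mutants, it was -0.75 and did not pass (adjusted p = 0.0823), while both age calls held. Its second probe gave -0.48 at 1 month and -0.78 with age in wild types. At 1 year the genotypes differed by 0.08 ± 0.14, and the test of the difference between the ages, 0.66 ± 0.19, did not pass (adjusted p = 0.169).

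**Figure D3:**
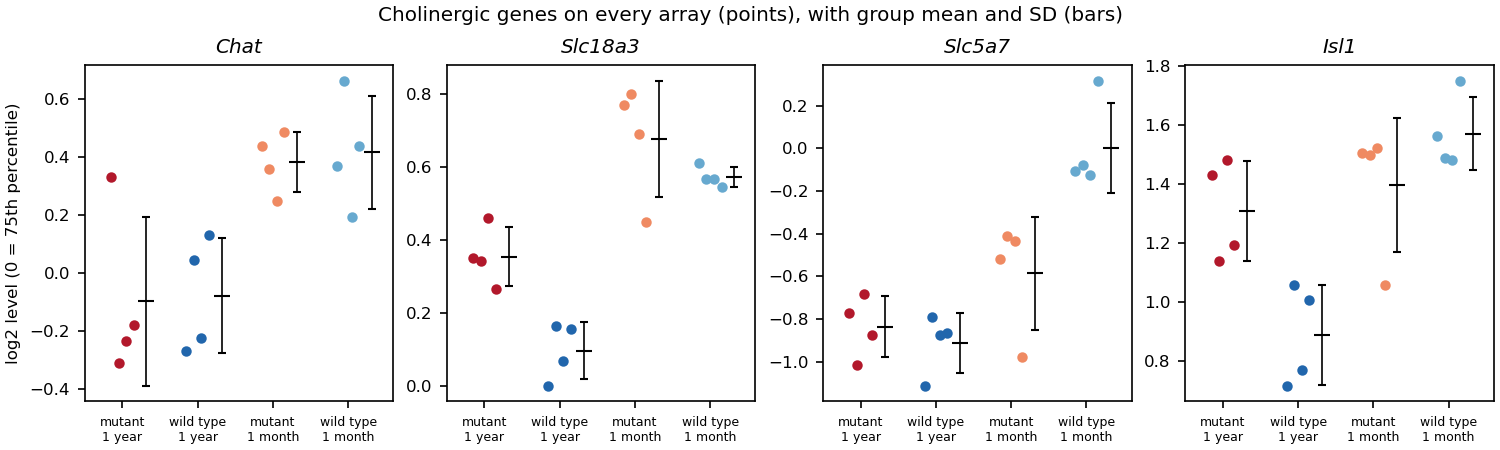
The panels plot the log2 level of 3 acetylcholine genes and of Isl1, a factor of starburst and other inner retinal neurons, on every array, with the group mean and SD as bars (n = 4 arrays each). In wild types all 4 genes have their 1-year arrays below their 1-month arrays, and Slc5a7 in 1-month mutants lies between -0.98 and -0.41, below the 1-month wild types.

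Of 14 acetylcholine genes beyond Chat and Slc18a3, Slc5a7 alone passed with age averaged over genotypes, with 12 of 14 estimates below 0 and a median of -0.13. Ache, the enzyme that breaks acetylcholine down, changed by 0.01 ± 0.07. In wild types Chrna7, a nicotinic receptor subunit, rose by 0.53 ± 0.16 (adjusted p = 0.0467), a call kept in 3 of 16 fits with 1 array left out and lost without the 3 arrays against the male label (adjusted p = 0.0704). Chrnb4, another subunit, was higher in 1-year mutants, at -0.67, -0.75, -0.23 and -0.47, than in 1-year wild types, at -1.26, -1.38, -1.16 and -1.31. This difference of 0.75 ± 0.11 (adjusted p = 0.00431) was called in all 16 fits with 1 array left out and also without the 3 arrays (0.79, adjusted p = 0.0219). Chrna5, also a subunit gene, was higher in 1-month mutants by 0.52 ± 0.13 (adjusted p = 0.0450), a call kept in 4 of those 16 fits and lost without the 3 arrays, at 0.41 (adjusted p = 0.306).

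Dopamine synthesis begins with tyrosine hydroxylase, encoded by Th, which in the retina is confined to a sparse amacrine class. Th levels at 1 year were -0.01, 0.12, 0.19 and 0.21 in mutants, against 0.07, 0.43, 0.27 and 0.39 in wild types. Levels at 1 month were 0.18, 0.13, 0.25 and 0.69 in mutants, against 0.66, 0.51, 0.56 and 0.42 in wild types. Among the 1-month mutants 3 arrays lay below all 4 wild-type arrays and replicate 4 lay above them. The Th genotype difference was -0.16 ± 0.12 at 1 year (95% interval -0.42 to 0.09, adjusted p = 0.685) and -0.23 ± 0.12 at 1 month (-0.48 to 0.03, adjusted p = 0.392). Without replicate 4 the 1-month difference was -0.35 and passed (adjusted p = 0.0491), and the average over the ages was -0.26 and passed (adjusted p = 0.0402). Without the 3 arrays against the male label, which include 2 of those 3 low 1-month mutant arrays, the 1-month difference was -0.10 (adjusted p = 0.918). The age change of Th was -0.25 ± 0.12 in wild types (-0.50 to 0.01) and -0.18 ± 0.12 in mutants (-0.44 to 0.07), and neither passed. Averaged over genotypes it was -0.22 ± 0.08 and did not pass (adjusted p = 0.0888). With the sex pattern as a covariate the averaged change was -0.24 and passed (adjusted p = 0.0492), in 1 of 30 alternatives.

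Of 10 further dopamine genes, 1 rose and 1 fell with age over both genotypes, with a median of -0.04. Gch1, the first enzyme in making the cofactor of tyrosine hydroxylase, rose by 0.73 ± 0.17 (adjusted p = 0.00763), and its second probe gave 0.44. Gch1 averaged -1.74 ± 0.37 in mutants and -1.82 ± 0.29 in wild types at 1 year, and -2.29 ± 0.41 in mutants and -2.72 ± 0.34 in wild types at 1 month (SD, n = 4 each). The receptor gene Drd1 fell by 0.34 ± 0.07 (adjusted p = 0.00220). Ddc, which makes dopamine from the product of Th, rose in wild types by 0.52 ± 0.15 (adjusted p = 0.0364), but its second probe gave -0.32, so the 2 probes disagree. The calls of Gch1 and Drd1 held without the 3 arrays against the male label, and that of Ddc was lost (adjusted p = 0.0633). The vesicular monoamine transporter gene Slc18a2 changed by 0.06 ± 0.09.

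The transcription factor Tfap2b averaged 3.54 ± 0.16 in mutants and 3.33 ± 0.07 in wild types at 1 year, and 3.59 ± 0.20 in mutants and 3.71 ± 0.14 in wild types at 1 month (SD, n = 4 each). At 1 year its levels were 3.60, 3.39, 3.73 and 3.44 in mutants, against 3.23, 3.38, 3.37 and 3.33 in wild types. At 1 month they were 3.57, 3.78, 3.71 and 3.32 in mutants, against 3.71, 3.59, 3.62 and 3.90 in wild types. The 1-year wild types lay below all 1-month wild types and just below the 1-year mutants. Tfap2b fell with age in wild types by 0.38 ± 0.11 (adjusted p = 0.0349), and in mutants the change was -0.05 ± 0.11 (95% interval -0.29 to 0.18). The genotype difference was 0.21 ± 0.11 at 1 year (-0.02 to 0.44, adjusted p = 0.498) and -0.11 ± 0.11 at 1 month (-0.34 to 0.12). The difference between the age changes, 0.32 ± 0.15, did not pass (adjusted p = 0.472). The wild-type call of Tfap2b was lost with the replicate number as a block (adjusted p = 0.0695), with array medians as the scale (-0.33, adjusted p = 0.282) and without replicate 1, 3 or 4 of the 1-month wild types or any 1 of the 4 replicates of the 1-year wild types, with values between -0.40 and -0.31. Averaged over genotypes the change of Tfap2b passed without replicate 4 of the 1-month mutants, at -0.26 (adjusted p = 0.0151), and without replicate 3 of the 1-year mutants, at -0.25 (adjusted p = 0.0405). It also passed at -0.19 after normexp with quantile normalization (adjusted p = 0.04355) and in the deposited log2 matrix (adjusted p = 0.04165). These were 4 of 30 alternatives.

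The genotype estimates of Tfap2a had opposite signs at the 2 ages, and neither passed. Its levels at 1 year were 1.52, 1.78, 1.64 and 1.26 in mutants, against 1.36, 1.36, 1.16 and 1.28 in wild types. Levels at 1 month were 1.38, 1.54, 1.41 and 1.29 in mutants, against 1.56, 1.54, 1.52 and 1.57 in wild types. At 1 year 3 mutant arrays lay above the wild types, and at 1 month 3 lay below the wild types. The genotype difference was 0.26 ± 0.10 at 1 year (95% interval 0.05 to 0.47, adjusted p = 0.300) and -0.14 ± 0.10 at 1 month (-0.35 to 0.07, adjusted p = 0.537). The second probe, which reports another transcript record of the gene, gave 0.51 ± 0.16 and -0.34 ± 0.16. The difference between the genotype effects was 0.40 ± 0.14 (0.10 to 0.70, adjusted p = 0.267) and 0.85 ± 0.22 on the second probe (adjusted p = 0.217 over all kept probes), so it had the same sign on both probes and passed on neither. Within slides the 1-year difference of Tfap2a was 0.45 on slide 1 and 0.07 on slide 2. With age Tfap2a changed by -0.26 ± 0.10 in wild types (-0.47 to -0.05, adjusted p = 0.107) and 0.14 ± 0.10 in mutants, and neither passed. The second probe, at levels of -3.88 to -2.95, gave -0.50 ± 0.16 in wild types and 0.34 ± 0.16 in mutants and did not pass. With the mean of the 2 probes as the gene's level, the wild-type change was -0.38 and passed (adjusted p = 0.0276).

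Of 19 other amacrine transcription factors, 4 fell with age over both genotypes and 0 rose, with 16 of 19 estimates below 0 and a median of -0.17. Isl1 fell by 0.39 ± 0.09 (adjusted p = 0.00705) and in wild types by 0.68 ± 0.12 (adjusted p = 0.00222). In mutants alone 0 of the 19 factors, Isl1 among them, were called with age. Isl1 is expressed by starburst amacrine cells and also by ganglion and bipolar cells, and it is counted in the ganglion cell list below too. Tfap2c and Prox1 fell by 0.22 ± 0.07 and 0.22 ± 0.06, and their calls were kept in 9 and 10 of the 16 fits with 1 array left out. Without the 3 arrays against the male label the averaged change of Isl1 was -0.35 (adjusted p = 0.0621), that of Tfap2c -0.17 (adjusted p = 0.197) and that of Prox1 -0.19 (adjusted p = 0.152), and none of these 3 passed. The wild-type changes of Isl1 (adjusted p = 0.00668) and of Tfap2c (-0.37, adjusted p = 0.0294) still passed. The wild-type call of Tfap2c was kept in all 16 fits with 1 array left out. Pax6 and Ptf1a, which act early in amacrine development, changed by 0.11 ± 0.06 and 0.14 ± 0.20. None of the 19 passed between genotypes.

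Calb2 encodes calretinin, a calcium-binding protein of several amacrine classes and of many ganglion cells. Calb2 levels at 1 year were 1.04, 0.04, 0.51 and 0.72 in mutants, against 0.66, 0.62, 0.81 and 0.67 in wild types. Levels at 1 month were 1.22, 1.27, 1.29 and 0.57 in mutants, against 0.79, 0.99, 0.86 and 1.02 in wild types. The mutant groups were wide, with replicate 2 low at 1 year and replicate 4 low at 1 month, and the wild-type groups were narrow. The Calb2 age change was -0.51 ± 0.19 in mutants (95% interval -0.92 to -0.11, adjusted p = 0.132) and -0.22 ± 0.19 in wild types (-0.63 to 0.18, adjusted p = 0.478). It passed in mutants without replicate 4 at 1 month, at -0.69 (adjusted p = 0.0215), and without replicate 1 at 1 year, at -0.67 (adjusted p = 0.0478). Averaged over genotypes the Calb2 change was -0.37 ± 0.13 and did not pass (adjusted p = 0.0678). The averaged change passed in 3 of 30 alternatives. These were slide as a block (adjusted p = 0.0499) and leaving out the same mutant arrays, replicate 4 at 1 month (adjusted p = 0.0124) or replicate 1 at 1 year (adjusted p = 0.0234). Genotypes differed by -0.11 ± 0.19 at 1 year (-0.52 to 0.29) and 0.17 ± 0.19 at 1 month (-0.23 to 0.58).

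Among 12 other amacrine markers, 4 fell with age over both genotypes and 0 rose, with a median of -0.23. Calb1, the calcium-binding protein calbindin, which horizontal cells also carry and which the horizontal cell list below counts again, fell by 0.48 ± 0.12 (adjusted p = 0.00969). Gjd2, the neuronal gap junction protein connexin 36, fell by 0.33 ± 0.09, a call kept in 12 of 16 fits with 1 array left out. Slc17a8, the glutamate transporter of a class of glutamate-releasing amacrine cells, fell by 0.36 ± 0.11 and was kept in 8 of those fits. Megf11, a spacing receptor of starburst and horizontal cells, fell by 0.26 ± 0.07, and Pvalb changed by 0.40 ± 0.19 without passing. None of the 4 calls held without the 3 arrays against the male label, with Calb1 at -0.40 (adjusted p = 0.0603), Gjd2 at -0.30 (adjusted p = 0.143), Slc17a8 at -0.39 (adjusted p = 0.0548) and Megf11 at -0.28 (adjusted p = 0.0633).

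Of 10 neuropeptide genes, Grp and Npy fell with age over both genotypes, by 0.75 ± 0.12 and 0.30 ± 0.07, and Sst, which encodes somatostatin, rose by 0.56 ± 0.12 (adjusted p = 0.00616). Sst levels at 1 year were -0.88, -0.15, -0.56 and -0.73 in mutants, against -1.48, -1.30, -1.24 and -1.85 in wild types. At 1 month they were -1.12, -1.46, -1.54 and -1.40 in mutants, against -2.04, -1.49, -1.92 and -1.68 in wild types. The 1-year mutants lay above every other array. The genotype difference of Sst passed at 1 year, at 0.89 ± 0.18 (adjusted p = 0.0274, called in 11 of 16 fits with 1 array left out), and averaged over the ages, at 0.65 ± 0.12 (adjusted p = 0.0118). At 1 month it was 0.40 ± 0.18 (adjusted p = 0.289), and the difference between the ages did not pass (adjusted p = 0.528). Leaving out the 3 arrays against the male label, the averaged calls of Sst and Grp held, the 1-year genotype difference of Sst was 0.99 and did not pass (adjusted p = 0.0571), and the age change of Npy was -0.29 and did not pass (adjusted p = 0.0548). Vip changed by -0.33 ± 0.14 with age and did not pass. Over all 87 measured genes of these 7 lists, 15 fell and 2 rose with age averaged over genotypes, where 8.58% of all genes fell and 10.2% rose. Of the 87 estimates 68 were below 0, with a median of -0.14, beside -0.05 over all genes. Without the 3 arrays against the male label 4 of the 87 fell and 2 rose, where 9.31% of all genes passed in either direction.

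**Figure D4:**
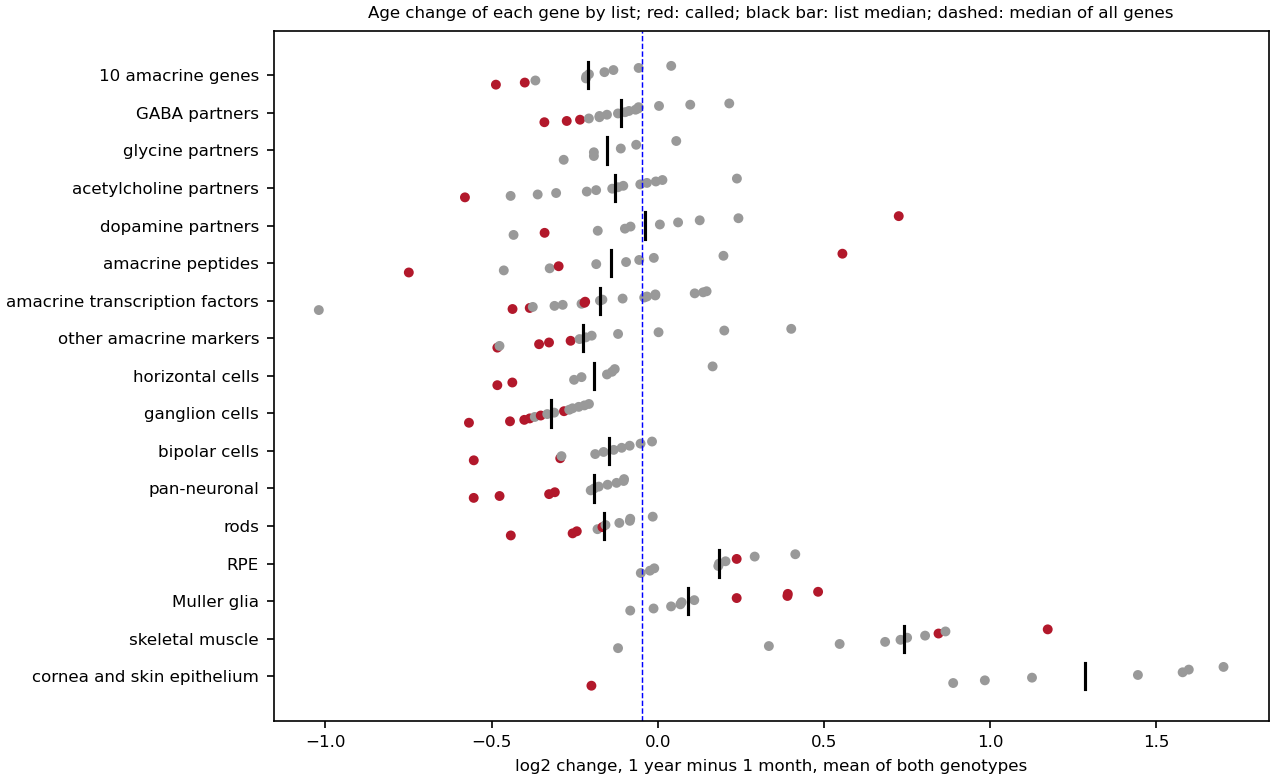
Points are the log2 age changes (1 year minus 1 month, mean of both genotypes) of single genes, by list, red where the adjusted p over all genes is under 0.05, with a bar at the list's median and a dashed line at the median of all genes (-0.05). The 10 amacrine genes have a median of -0.21, ganglion cell genes of -0.32 and pan-neuronal genes of -0.19, and the 12 lens genes (median -3.56) are left off the axis.

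Genes of other cells in the tissue also differed between the ages. Averaged over genotypes, 8.58% of all genes were called lower with age and 10.2% higher. The counts of this paragraph come from all 16 arrays and are not given without the 3 arrays against the male label. Leaving those 3 out took the calls over all genes from 3576 to 1771 averaged and from 1271 to 273 with age in mutants. At 1 month the genotype calls went from 508 to 133. Ganglion cell genes had 6 of 14 lower and 0 higher (median -0.32), pan-neuronal genes 4 of 11 lower (median -0.19), rod genes 4 of 10 lower (median -0.16), bipolar cell genes 2 of 10 lower (median -0.15) and horizontal cell genes 2 of 8 lower (median -0.19, Calb1 being 1 of the 2), all averaged over genotypes. In the rod list 5 of 10 genes were lower with age in mutants (median -0.29) and 0 of 10 in wild types (median -0.04), and the test of the difference between the genotypes passed for 1 of the 10. Of all genes, 2.92% were called lower in mutants and 5.09% in wild types, and 0.405% passed the test of the difference. At 1 year 9 of 10 rod estimates were lower in mutants than in wild types, 1 of them called (median -0.28), where the 10 amacrine genes had a median of 0.19. Between genotypes at 1 year 0.867% of all genes were called. The summed rod level was 10.02 to 10.23 in 1-year mutants and 10.35 to 10.45 in 1-year wild types. Müller glia genes had 4 of 10 higher (median 0.09). The summed level of the 10 amacrine genes (log2 of the sum over genes) was 6.63 to 6.86 in 1-year mutants, 6.50 to 6.61 in 1-year wild types, 6.65 to 6.92 in 1-month mutants and 6.75 to 6.92 in 1-month wild types. Such a sum is of unlogged levels, so the brightest probes weigh most, here those of Slc6a9 and Slc32a1. Neither of these genes passed in any of the 7 contrasts with all 16 arrays. Lens genes, from tissue next to the retina, had 8 of 12 lower and 0 higher. Their summed level was 3.70 to 9.99 in 1-year mutants, 1.63 to 7.01 in 1-year wild types, 6.71 to 10.86 in 1-month mutants and 9.57 to 10.09 in 1-month wild types. No lens marker was at background throughout, each being well above it on at least 15 of 16 arrays, and the part of lens RNA in the age differences was not tested. Skeletal muscle genes had 2 of 10 higher (summed level 6.37 to 8.09 in 1-year mutants, 6.20 to 7.08 in 1-year wild types, 5.89 to 7.06 in 1-month mutants and 4.84 to 6.31 in 1-month wild types), and cornea and skin epithelium genes had 7 of 8 estimates above 0 with a median of 1.29, while the 1 that passed was lower. The summed epithelium level was 6.83 to 9.46 in 1-year mutants, 5.06 to 8.86 in 1-year wild types, 5.24 to 7.44 in 1-month mutants and 5.39 to 7.52 in 1-month wild types. Their part was not tested either. The 10 rod genes and 9 RPE genes were well above background on all 16 arrays, as the tissue label calls for. RPE genes had 6 of 9 higher in 1-month mutants than in 1-month wild types, where 2.67% of all genes were called in either direction. With age, 8 of 9 RPE estimates were below 0 in mutants, 1 of them called (median -0.22), and 9 of 9 were above 0 in wild types, 3 of them called (median 0.49). Of all genes, 6.68% were called with age in mutants and 12.4% in wild types, in either direction. The summed RPE level was 7.52 to 7.93 in 1-year mutants, 7.63 to 8.05 in 1-year wild types, 7.70 to 8.15 in 1-month mutants and 6.90 to 7.52 in 1-month wild types. In wild types it thus rose with age while Chat, Slc18a3 and Tfap2b fell, and its part in these falls was not tested. The part of the rod genes (median -0.04 with age in wild types) was not tested either.

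Within groups, several members varied together from array to array. Over the 16 arrays, which share tissue composition and scaling, the Pearson correlation was 0.94 between Gad1 and Slc32a1 and 0.91 between Gad1 and Tfap2b, and 0.92 and 0.85 after the group means were taken away. Chat and Slc18a3 correlated at 0.67, and at 0.04 without the group means (0.27 when replicate 4 of the 1-month mutants was also left out). Th correlated at -0.51 with Gad1, -0.53 with Slc32a1 and -0.20 with Gad2 without the group means, values that rested on replicate 4 of the 1-month mutants, since without that array they were 0.13, 0.04 and 0.18. On replicate 4 of the 1-month mutants 8 of the 10 genes were below their group mean, with a median deviation of -0.22, and Th and Chat were above it.

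**Figure D5:**
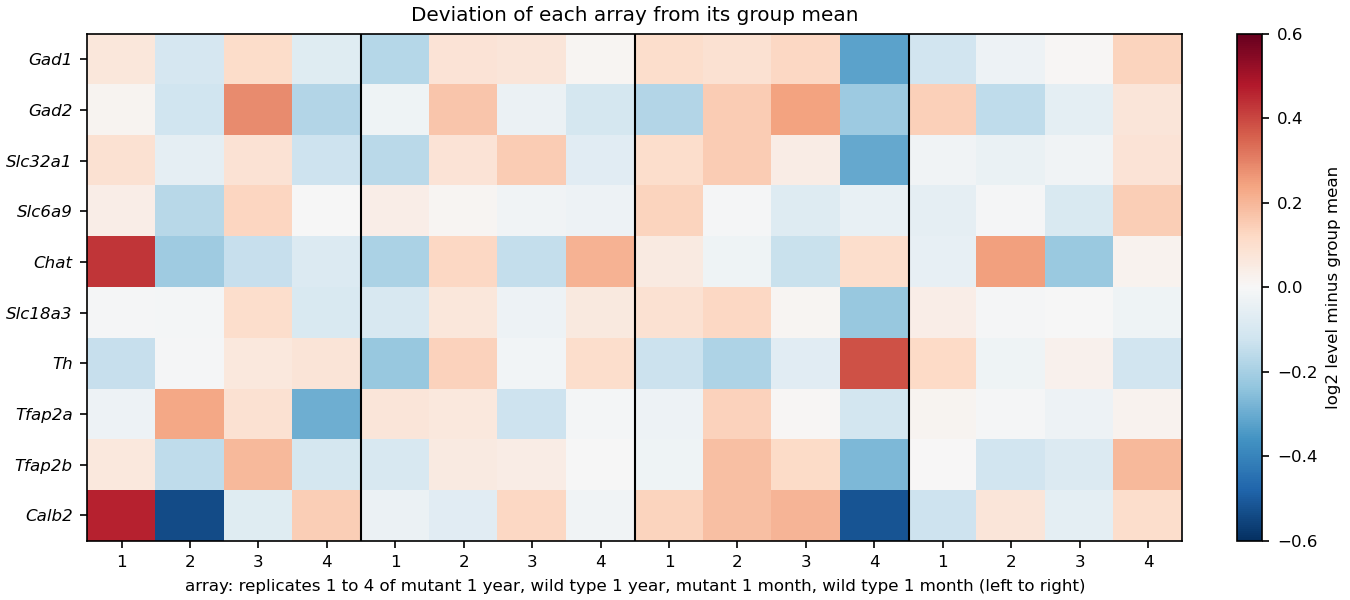
Colours give the log2 level of each of the 10 genes on each array minus its group mean, red above and blue below, with arrays in columns (replicates 1 to 4 of the 4 groups). Replicate 4 of the 1-month mutants is below its group mean in 8 genes and above it in Th and Chat, and Calb2 has the widest deviations in both mutant groups.

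The genes whose levels ran most like each member over the 16 arrays were listed by Pearson correlation, as a description. For Gad1 these were Gucy1a1 (0.97), Rgs8 (0.97) and Ly6h (0.96), and for Slc32a1 Rasgef1b (0.93), Gabrd (0.93), a GABA receptor subunit, and Rgs8 (0.92). Gad2 ran most like Terf2ip (0.93), Lhfpl4 (0.91) and Rcan2 (0.89). For Slc6a9 they were Slc7a4, Limd2 and Gpr137 (0.90, 0.90 and 0.89).
The closest to Slc18a3 were Spg7 (0.98), Otop3 (0.96) and Nrep (0.95), which dropped to 0.86, 0.64 and 0.51 without the group means. Chat was closest to Ermn (0.90), Rnf165 (0.89) and Pla2g4b (0.89). Th was closest to Krtap4-16 (0.96), Tbc1d12 (0.96) and Tmc8 (0.94). Tfap2b was closest to Fut9 (0.95), Fam155a (0.95) and Adgrb2 (0.95), while for Tfap2a no gene passed 0.80, with Dclk3 at 0.80, Tsc22d4 at 0.79 and Kctd9 at 0.78. Calb2 ran most like Mmp9 (0.97) and the ganglion cell genes Thy1 (0.95) and Rbpms2 (0.94).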

How the data were processed

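RNA of retina with RPE was measured on 16 single-colour arrays. The deposited scanner files give each spot's Cy3 intensity after background subtraction and spatial detrending in Agilent's extraction software, per the file headers, and the submitters' processing notes give its version as Feature Extraction 11.0.1.1. A deposited log2 matrix, whose arrays share 1 distribution as after quantile normalization, served only as an alternative. Of 62976 spots per array, 59305 were non-control and represented 55681 probes.

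Outlier spots were dropped, and log2 processed intensities were centred on the 75th percentile of their array and averaged over the spots of each probe. Accessions were looked up in RefSeq (GRCm38.p6, for names and chromosomes), which named 27235 probes by 1 gene each, for 20660 genes. The dim-probe filter asked for signal well above background on 4 or more arrays and kept 49230 probes, and the brightest probe per gene was used, giving 19022 genes. limma 3.58.1 (R 4.3.3) fitted 4 group means over all arrays, and 7 contrasts were tested two-sided with eBayes. Calls required p under 0.05 after Benjamini-Hochberg adjustment across the 19022 genes, and every p printed is limma's. Errors beside a change are standard errors with 4 arrays per group, and those beside a mean are SDs. The number of arrays limits the precision. The fitting code was tested on simulated data.

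The members and the gene lists were chosen with earlier results of these data known. Named genes are all members, the first 2 measured genes of each amacrine partner list and its called genes (at most 6), and the 3 genes most like each member. Some genes of these lists are counted but not reported by name here. Slc6a5 (no probe) and Best1 (filtered out) were not measured. Septin4 was listed under its older name. Replicate numbers are shared between groups, but of 24 same-numbered pairs only 5 had deviations correlated above 0.1 (range -0.54 to 0.30), so they were not used as pairs. Alternatives covered slide, array row, sex pattern, replicate block, normalization, scaling, filters, probe choice and leaving out each array. Array column was not among them.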

Additional observations from a re-analysis of the deposited data

Results flagged for a closer look

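Each gene was examined in each of the 4 groups, 40 sets of 4 arrays in all, for an array whose gap to its nearest neighbour took up more of the group's range than Dixon's 95% critical value for 4 samples allows. Chance alone flags about 1 in 20 such sets. In 3 sets an array stood apart. Gad1 on replicate 4 of the 1-month mutants was at 2.83, the lowest of its group, with a gap of 0.929 of the range. Calb2 on the same array was at 0.57, again the lowest, with a gap of 0.899. Slc32a1 on replicate 4 of the 1-month wild types was at 5.14, the highest of its group, with a gap of 0.836.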

How the results depend on the processing

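Over the 10 genes, 7 contrasts and 30 alternatives, 1970 of 2100 values kept their direction and side of the threshold, 40 calls were lost, 23 were gained, 67 uncalled values changed sign and 0 calls reversed. Of the age calls in mutants (1 gene), 0 were left within slide 1, within slide 2, with the replicate block, with the sex pattern as a covariate, with array median scaling and with every kept probe tested, and leaving out 1 array gave 0 to 2. In wild types (3 genes), 0 were left within either slide and with array median scaling, 1 with every kept probe tested, and leaving out 1 array gave 1 to 4. Averaged over genotypes (2 genes), 0 were left within slide 1 and 1 within slide 2, 4 were called after normexp with quantile normalization and 4 in the deposited log2 matrix, and leaving out 1 array gave 2 to 6, the 6 without 1-month mutant replicate 4. Genotype calls were 0 in all alternatives except leaving out 1 array, which gave 0 to 1 at 1 month and 0 to 2 averaged, both highest without 1-month mutant replicate 4. The replicate block left 2 calls in wild types and 2 averaged, with Slc18a3 in mutants at an adjusted p of 0.0506. Within a slide 2 arrays per group remain, which lowers the number of calls by construction, and the other causes were not tested.

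Counts over all genes moved more. At 1 month the 508 genotype calls became 310 with the replicate block, 133 without the 3 arrays against the male label, 245 with sex pattern as a covariate, 305 with array median scaling, and 225 to 924 with 1 array left out. At 1 year 165 became 96, 79, 123 and 82 in the same order, 284 after normexp with quantile normalization, and 82 to 311. The 454 averaged calls became 180 without the 3 arrays, 711 after normexp and 300 to 863. The 77 interaction calls became 43, 12, 73 and 21, 122 after normexp, 41 with every kept probe, and 33 to 194. With age, 1271 calls in mutants became 273 without the 3 arrays, 638 with median scaling and 785 to 1919. In wild types 2353 became 1361 with median scaling and 1517 to 2797, and averaged 3576 became 1771 without the 3 arrays, 2294 with median scaling and 2746 to 4304. Within slides the 7 counts were 0 to 1512. No alternative moved the median change of all genes beyond -0.06 to 0.08.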
